A study of Apis mellifera with 2 samples.

Results

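The transcripts described here were the non-coding model records of the honey bee, *Apis mellifera*, that received sequence tags in queen larvae fed miR-184 or water. They were picked by the prefix of their RefSeq identifier alone, XR, which RefSeq gives to a predicted transcript for which no protein is annotated. The rule found 172 such records among the 5924 records of the count table, or 2.90%. The others were 5676 coding model records (prefix XM) and 76 curated mRNA records (prefix NM). The identifiers of the 172 lay between XR_014867.1 and XR_015107.1, all 172 in their first version. The RefSeq gene table of the assembly Amel_HAv3.1 paired 0 of the 172 with a gene, against 2727 of the 5676 coding model records, so that the non-coding records are given by their identifiers and no role is given to any of them. Their sequences and positions were not used here.

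A non-coding RNA acts, where it acts at all, as RNA and not through a protein. Some long non-coding RNAs of the honey bee are well known, such as Ks-1 and AncR-1, which stay in the nucleus, and Kakusei, an RNA of the brain that is induced by neural activity. Their records carry another prefix (NR), of which the count table analysed here held 0. A predicted non-coding record can also stand for a transcribed gene copy in which the annotation found no intact reading frame. A microRNA such as miR-184, which is conserved across animals, guides a protein complex to transcripts that pair with it, and this pairing usually lowers the stability or the translation of an mRNA.

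The study had 2 libraries and no replicate of either. The larvae of the miR-184 library came from the stock ZND No.1 of *Apis mellifera ligustica*. They were reared in queen cells and were given 5 µl of a solution with 100 ng/µl of miR-184 from 26 to 32 hours after they hatched and again a day later. The water library came from larvae of the same stock and rearing that received 5 µl of DEPC-treated water at the same times. A feeding group held 20 to 25 queen cells, and neither the larvae behind a library nor their age at collection are given in the sources used here. Both libraries were made by tag profiling, in which poly(A) RNA is copied from an oligo(dT) primer, cut with Nla III and read as a short tag beside the cut, so that a non-coding RNA without a poly(A) tail or without an Nla III site is not seen. The table gives 1353258 tags in the miR-184 library and 1338190 in the water library, and levels are given as TPM, tags scaled to a library total of 1000000. A single tag was worth 0.739 TPM in the miR-184 library and 0.747 TPM in the water library. The smallest count above 0 was 2 in both, so that a listed 0 may hide tags that were dropped. No step that drops tags is given in the sources used here. HEX70b, the mRNA of a storage protein of larvae, had 58273 tags in the miR-184 library and 60187 in the water library. Of the major royal jelly protein family, which has members made in large amounts in nurse bee glands, the mRNAs with a record had few tags. Mrjp1 had 2 tags in the miR-184 library and 5 in the water library, Mrjp2 had 0 and 2, and Mrjp8 had 10 and 6. No record was paired with the storage proteins Hex70a, Hex70c and Hex110 or with the other Mrjp genes looked for.

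Among the records with tags, the non-coding ones were about as abundant at the median as the coding ones, but none of them reached the highest levels. The count table held 0 records without tags in both libraries, so that transcripts that were not detected are missing from both kinds. Their median was 14.8 TPM in the miR-184 library and 15.3 TPM in the water library. The coding model records had medians of 15.5 TPM in the miR-184 library and 17.2 TPM in the water library. The distribution of the non-coding records was wider in its middle part, with quartiles of 2.96 and 85.0 TPM in the miR-184 library and of 2.99 and 77.7 TPM in the water library. For the coding records the quartiles were 3.69 and 60.6 TPM in the miR-184 library and 3.74 and 62.8 TPM in the water library. At least 100 TPM was reached by 39 non-coding records (22.7%) in the miR-184 library and by 37 (21.5%) in the water library, compared with 17.4% and 17.9% of the coding records in these libraries. At least 1000 TPM was reached by 3 non-coding records (1.7%) in each library. Of the coding records, 2.6% reached it in the miR-184 library and 2.7% in the water library. The mean level differed more than the median, with 88.9 TPM for non-coding and 159 TPM for coding records in the miR-184 library, and 92.4 and 160 TPM in the water library. The highest of the 5676 coding model records had 38292 TPM in the miR-184 library and 42661 TPM in the water library. The highest of the 172 non-coding records had 1386 and 2128 TPM, and a smaller set tends to have a lower maximum. All these values are descriptions of 2 libraries, since records are not replicates and no test was made between the kinds of record.

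**Figure D1:**
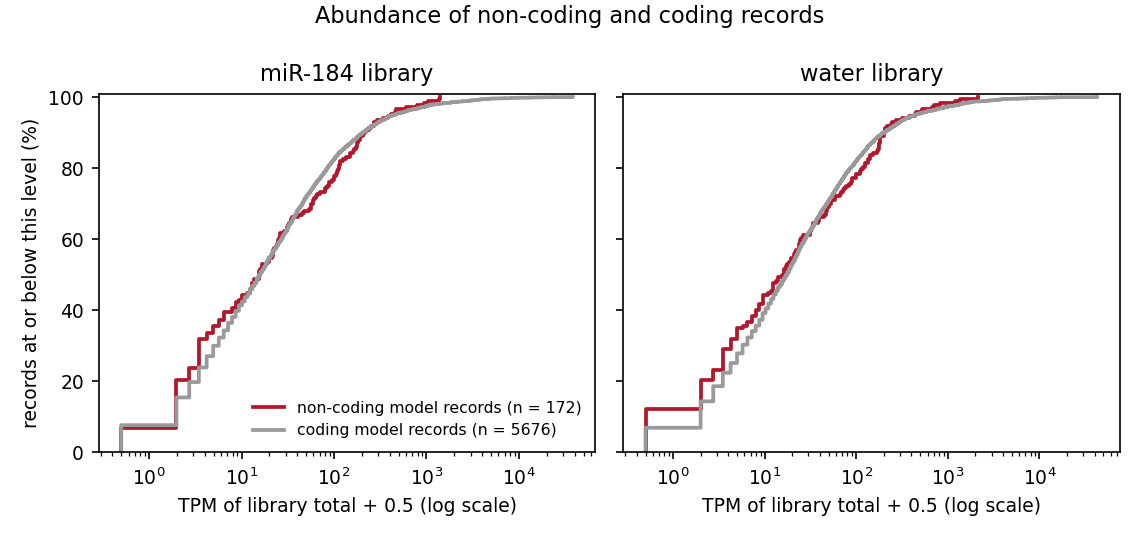
Share of records (%, vertical axis) at or below each level (TPM + 0.5, log scale) in the miR-184 library (left) and in the water library (right), for the 172 non-coding model records and the 5676 coding model records. The curves run close together near their middle, where the medians were 14.8 and 15.5 TPM in the miR-184 library, and the non-coding curve ends at 1386 TPM on the left and 2128 TPM on the right.

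The version of a record counts the revisions of its sequence. Since all 172 non-coding records were in version 1, they were also set beside the 1948 coding model records in version 1, a choice made after the levels were seen. These coding records had a median of 10.3 TPM in the miR-184 library and 12.0 TPM in the water library, below both medians of the non-coding records. The 3728 coding model records in later versions had medians of 18.5 and 20.2 TPM, above both. Within the non-coding records the level also went with the identifier, in a split likewise chosen after the levels were seen. The 86 records with the lower numbers, XR_014867.1 to XR_014988.1, had a median of 32.1 TPM in the miR-184 library and 35.9 TPM in the water library. The 86 with the higher numbers, XR_014989.1 to XR_015107.1, had 5.91 and 8.22 TPM. There were 30 non-coding records that averaged 200 tags or more, and 22 of them were among the 86 with the lower numbers. Among the 1948 coding records in version 1, the 974 with lower and the 974 with higher numbers lay closer, at 11.1 and 8.87 TPM in the miR-184 library and 12.7 and 11.2 TPM in the water library. What the order of the identifiers stands for is not given in the sources used here.

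A few records held most of the tags of the non-coding set. The 10 most abundant took 50.2% of its 20683 tags in the miR-184 library and 54.4% of its 21263 tags in the water library. The most abundant, XR_014889.1, had 1875 tags (1386 TPM) in the miR-184 library and 2847 tags (2128 TPM) in the water library, and ranked 95 among all 5924 records by its mean level. It was followed by XR_014908.1, with 1858 and 1795 tags, and by XR_014898.1, with 1404 and 1584. XR_014885.1 had 1276 tags in the miR-184 library and 1099 in the water library, XR_014983.1 had 1062 and 951, and XR_015008.1 had 804 and 698. XR_014951.1 had 612 and 902 tags, XR_014991.1 had 634 and 501, XR_014899.1 had 460 and 587, and XR_015033.1 had 393 and 602. Of these 10, 5 had a level above that of the water library and 5 a level below it, and the counts of all of them were within 1.55-fold of each other after scaling. For the coding model records no share of the most abundant was computed, and their mean lay farther above their median in both libraries.

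The share of the library that fell on non-coding records was 1.53% in the miR-184 library (95% Clopper-Pearson interval 1.51% to 1.55%) and 1.59% in the water library (1.57% to 1.61%). The intervals do not overlap, but they cover counting error only, since tags copied by PCR carry no molecular identifiers and neither library was repeated. XR_014889.1 alone decided the direction of this difference. It took 9.07% of the non-coding tags in the miR-184 library and 13.4% in the water library. Without it, the share was 1.39% in the miR-184 library (1.37% to 1.41%) and 1.38% in the water library (1.36% to 1.40%), and the intervals overlapped.

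The ratio of the libraries asks which transcripts differ between larvae fed miR-184 and larvae fed water. A difference was called where the p of the Audic and Claverie test was under 0.01 and the levels differed by more than 2-fold. The test and both thresholds are those that the study names, while the scaling to library totals, the replacement of a 0 and the two-sided form were chosen here. This test asks whether the tags of 1 record in 2 libraries differ by more than the sampling of tags allows (two-sided, applied to each of the 5924 records). It compares these libraries and not the feedings, and no difference below has a replicate check. In larvae taken whole or in part, fewer cells that make a transcript and less of it per cell cannot be told apart. Of the 172 non-coding records, 6 (3.49%) passed both thresholds, where 9.01% of all records and 9.13% of the coding model records did. Lower in the miR-184 library were 4 of the 172, with a background of 6.70% of all records, and higher were 2, with a background of 2.31%. With Benjamini-Hochberg adjustment of the Audic and Claverie p over the whole table, 5 of the 6 kept an adjusted p under 0.01. At an adjusted p under 0.01 with no threshold on the ratio, 22 non-coding records were called, which is 12.8% of them, against 14.6% of all records.

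The largest reduction among the 6 that had tags in both libraries was that of XR_014967.1. It had 17 tags (12.6 TPM) in the miR-184 library and 151 tags (113 TPM) in the water library, an 8.98-fold lower level (log2 ratio -3.17, 95% counting interval -3.98 to -2.44). In the exact test of Audic and Claverie with Benjamini-Hochberg adjustment, its adjusted p was 8.11e-27. XR_014938.1 had 15 tags in the miR-184 library and 52 in the water library and was 3.51-fold lower (log2 ratio -1.81, interval -2.75 to -0.96; adjusted p = 4.09e-05 in the same test). XR_015002.1 had 41 tags in the miR-184 library and 116 in the water library and was 2.86-fold lower (log2 ratio -1.52, interval -2.07 to -0.99; adjusted p = 1.53e-08 in the same test). The only record with tags in both libraries that was higher was XR_015003.1, with 86 tags (63.6 TPM) in the miR-184 library and 42 tags (31.4 TPM) in the water library. Its ratio of 2.03 lay just inside the threshold (log2 ratio 1.02, interval 0.47 to 1.59; adjusted p = 0.00144 in the same test).

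The other 2 of the 6 were listed at 0 in 1 library. XR_015079.1 was listed at 0 tags in the miR-184 library and had 10 tags in the water library, which is at least 3.37-fold lower when the 0 is set to a floor of 3 tags per library (adjusted p = 0.00668 in the same test). XR_015062.1 had 8 tags in the miR-184 library and was listed at 0 in the water library, 2.64-fold higher on the same floor. Its counting interval began at a log2 ratio of 0.76, short of the 2-fold threshold. The p of XR_015062.1 was 0.00817 in the Audic and Claverie exact count test and 0.0411 after adjustment, so that it was the record that lost its call. Since a listed 0 may hide dropped tags, both calls rest on counts near the limit of detection.

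**Figure D2:**
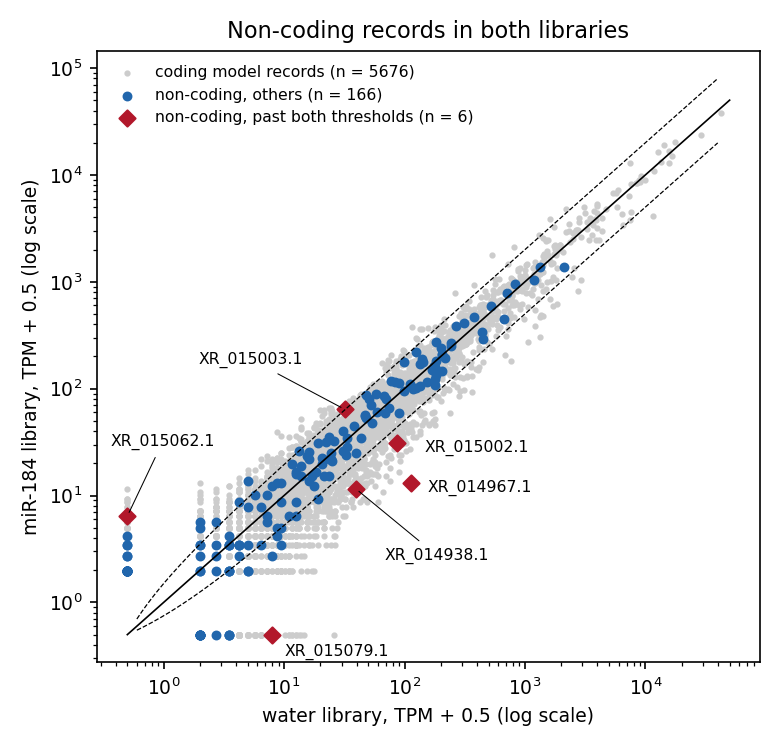
Level of each record in the miR-184 library (vertical axis) against its level in the water library (horizontal axis), both as TPM + 0.5 on log scales, for the non-coding and the coding model records, with a solid line at equal levels and dashed lines at a 2-fold ratio. The 6 non-coding records past both thresholds are drawn as diamonds; XR_014967.1, with 12.6 and 113 TPM, lies farthest from the line of equal levels among those with tags in both libraries.

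When a variation between libraries was assumed in place of counting error alone, fewer of the 6 passed. In a negative binomial exact test with a coefficient of variation of 0.2 between libraries, all 4 lower records passed both thresholds and 0 of the 2 higher ones did. XR_015003.1 then had p = 0.0405 and XR_015062.1 p = 0.0127 in this exact test. With 0.4 assumed, XR_014967.1 alone passed (p = 0.00112, exact test), while XR_015079.1 had p = 0.0161, XR_014938.1 p = 0.067 and XR_015002.1 p = 0.0933. Of all 5924 records, 4.42% passed with 0.2 assumed and 0.371% with 0.4. Which of these values holds for queen larvae was not tested, since each feeding has 1 library.

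**Figure D3:**
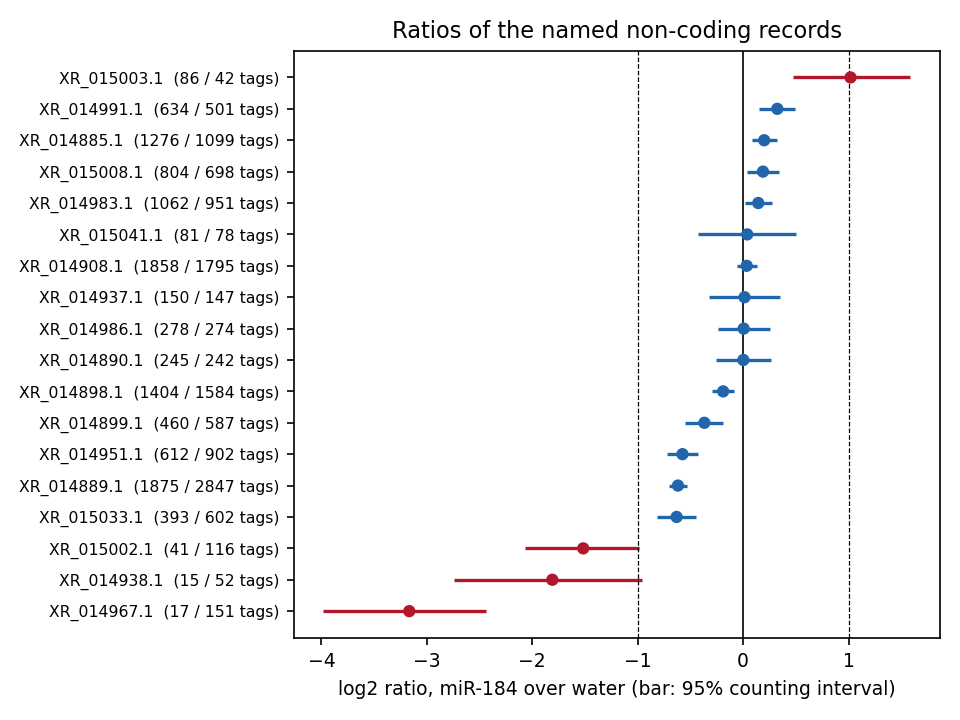
Log2 ratio of the miR-184 over the water library (points) with the 95% counting interval (bars) for the named non-coding records with tags in both libraries, whose tags stand beside each identifier in this order. The 4 records past both thresholds are in red, and the others, from XR_015033.1 at -0.63 to XR_014991.1 at 0.32, lie inside the dashed lines at a 2-fold ratio.

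A record with few tags cannot pass both thresholds, so that the number of calls was read beside coding records of like abundance. Against a listed 0, at least 7 tags in the water library or 8 in the miR-184 library were needed. By their sum of tags, 131 of the 172 non-coding records could have passed and 6 did (4.58%), and 4653 of the coding model records could have passed and 518 did (11.1%). Under a mean of 2 tags, 0 of 25 non-coding and 0 of 572 coding records passed. From 2 to under 10 tags, 2 of 44 non-coding (4.55%) and 79 of 1435 coding records (5.51%) passed. The kinds of record differed most from 10 to under 50 tags, where 1 of 43 non-coding (2.33%) and 248 of 1737 coding records (14.3%) passed. From 50 to under 200 tags the numbers were 3 of 30 (10%) and 130 of 1198 (10.9%). With 200 tags and over, 0 of 30 non-coding and 61 of 734 coding records (8.31%) passed. Within each level the number of non-coding records was small, and the shares were not tested against each other.

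**Figure D4:**
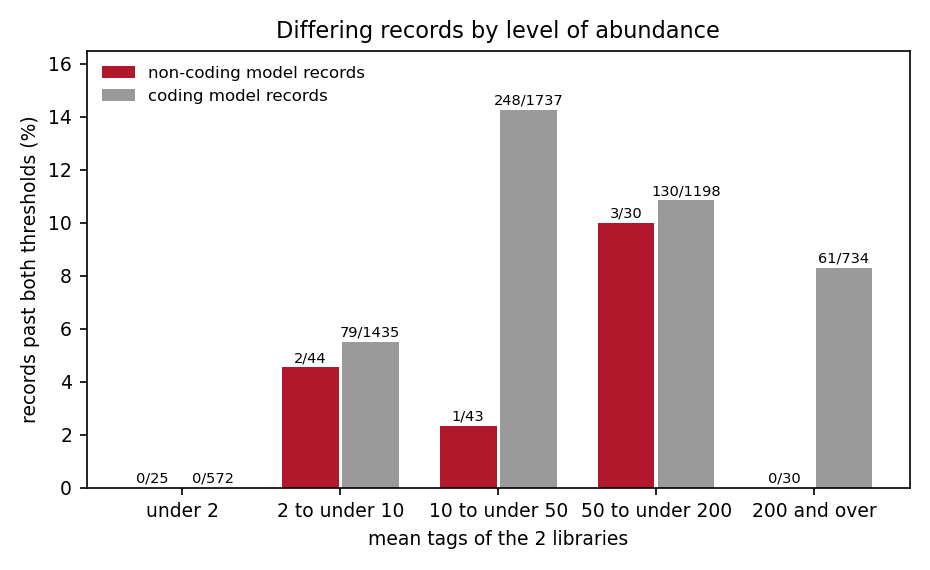
Share of records past both thresholds (%, vertical axis) by the mean tags of the 2 libraries (horizontal axis), for non-coding and coding model records, with the number past and the number of records above each bar. The non-coding bar is lower from 10 to under 50 tags, with 1 of 43 against 248 of 1737, and about equal from 50 to under 200 tags, with 3 of 30 against 130 of 1198. With 200 tags and over it is lower again, with 0 of 30 against 61 of 734.

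By the ratio alone, 40 non-coding records (23.3%) were past 2-fold in either direction, with a background of 27.7% of all records. Of these 40, 32 had a mean under 10 tags, where a record with 2 tags against a listed 0 falls to either side of the threshold by the replacement of the 0 and the library totals alone. With a mean of at least 10 tags, 8 of 103 non-coding records (7.77%) and 567 of 3669 coding records (15.5%) were past 2-fold. The 8 were the 4 named above and 4 that did not pass the test. XR_014894.1 had 35 tags in the miR-184 library and 17 in the water library, and XR_015005.1 had 18 and 6. XR_014918.1 had 12 and 25 tags, and XR_015025.1 had 8 and 16. The p of these 4 lay between 0.0195 and 0.102 in the Audic and Claverie exact count test.

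The non-coding records as a set were centred near equal levels. Their median log2 ratio was 0.03 over all 172 and -0.02 over the 139 with tags in both libraries, against -0.02 and -0.02 for the coding model records. With a listed 0 set to the floor of 3 tags and records of up to 3 tags in both libraries left out, the median was 0.00 over 142 non-coding records. With 50 or more tags on average there were 60 non-coding records, of which 35 were above and 25 below a ratio of 1, with a median log2 ratio of 0.05, and the 1932 coding records of this abundance had a median of 0.04. Of these 60, 47 (78.3%) were within 1.5-fold, as were 73.3% of the coding records. The interquartile range of the log2 ratio narrowed with abundance in both kinds of record. It was 0.77 for non-coding and 1.02 for coding records from 10 to under 50 tags, 0.68 and 0.70 from 50 to under 200 tags, and 0.50 and 0.57 with 200 tags and over.

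Of the 60 non-coding records that averaged 50 tags or more, 24 had an Audic and Claverie p under 0.01 but a ratio under 2, 13 of them higher and 11 lower. Among the 1932 coding records of this abundance it was 352 higher and 262 lower, and among all 2022 records 374 and 279. At this p with any ratio, 27 of the 60 (45%) were called, against 41.7% of these coding records and 42.1% of these 2022. The kinds of record were not tested against each other. Over all abundances, at an Audic and Claverie p under 0.01 without a threshold on the ratio and with the 6 named above included, 15 of the 172 (8.72%) were higher, with a background of 8.83% of all records, and 15 (8.72%) were lower, with a background of 11.6%. The smallest p among those under 2-fold belonged to the most abundant record, XR_014889.1, which was 1.54-fold lower (log2 ratio -0.62, interval -0.70 to -0.53; p = 3.91e-48, exact count test). XR_014951.1 was 1.49-fold lower (log2 ratio -0.58; p = 1.47e-14, exact count test), and XR_015033.1 was 1.55-fold lower (-0.63; p = 8.94e-12). In the other direction, XR_015074.1 had 296 tags in the miR-184 library and 167 in the water library (log2 ratio 0.81), and XR_014968.1 had 241 and 132 (0.85). The nearest to the ratio threshold from below was XR_014902.1, with 118 and 63 tags (log2 ratio 0.89). On the lower side the nearest at this p, XR_014903.1, was farther from it, with 146 and 237 tags (-0.72). At high counts a small ratio gives a small p, and the spread between larvae or preparations is not part of it.

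The non-coding records whose ratio was nearest to 1, among those that averaged 50 tags or more, were XR_014890.1, XR_014986.1, XR_014937.1, XR_014908.1 and XR_015041.1. XR_014890.1 had 245 tags in the miR-184 library and 242 in the water library, XR_014986.1 had 278 and 274, and XR_014937.1 had 150 and 147. XR_014908.1 had 1858 and 1795 tags, and its counting interval, -0.06 to 0.13 on the log2 scale, was the narrowest of the 5. For XR_015041.1, with 81 and 78 tags, the interval was wider, from -0.43 to 0.51.

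Listed zeros were unevenly placed. In the miR-184 library 12 non-coding records (6.98%) were listed at 0, and in the water library 21 (12.2%). For the coding model records it was 436 (7.68%) in the miR-184 library and 394 (6.94%) in the water library, and for all records 7.73% and 7.09%. The kinds of record ran in opposite directions, on few non-coding records, and this contrast was not tested. No record was at 0 in both libraries. Most of these non-coding records were at the limit of detection, with at most 3 tags in the other library for 8 of the 12 and for 17 of the 21. Besides XR_015079.1, the highest counts in the water library against a listed 0 in the miR-184 library were 4 tags, in XR_015061.1, XR_015067.1 and XR_015093.1. Besides XR_015062.1, the highest counts in the miR-184 library against a listed 0 in the water library were 5 tags in XR_014976.1 and 4 tags in XR_014979.1 and XR_014982.1. None of these 6 passed the test, and at this depth no difference was detectable in them.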

How the data were processed

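Tags of 2 libraries were aligned by the authors to mRNAs and the genome of the honey bee, and reads with a unique place were added up per gene. The deposited columns were read as counts per record. The labels name them TPM, but both sum to more than the 1000000 of TPM and to different totals. Neither the aligner and its version nor the genome build, nor a step that drops rare tags, is given in the sources used here. Each count was divided by its library total, with 1 tag in place of a 0 in ratios. The Audic and Claverie test (2 times the smaller tail, conditioned on the water count) was run over the whole table. It was also run on simulated libraries with counting error only, which cannot show how it behaves with variation between larvae or preparations. Without replicates, quasi-likelihood tests could not be fitted. Single ratios have exact Clopper-Pearson intervals.

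The records and lists were chosen with earlier results of these data known. Named were the 10 most abundant non-coding records, those that passed both thresholds and reached 10 TPM in each library, those with the 3 highest counts against a 0 in each direction (ties included) and the 5 nearest a ratio of 1 with a mean of at least 50 tags. XR_015079.1 and XR_015062.1 fall under the third group. XR_014894.1, XR_014918.1, XR_015005.1, XR_015025.1, XR_014902.1, XR_014903.1, XR_014968.1 and XR_015074.1 were added after their values were seen. Of the markers and named long non-coding RNAs looked for, those without a value above were not analysed here. Unique mapping leaves out tags shared by near-identical copies, and counts of records that overlap another gene are uncertain. The tools were scipy 1.17.1 and numpy 2.4.6 for the tests and pandas 2.3.3 and matplotlib 3.10.9 for tables and plots under Python 3.11.15. Under R 4.3.3, edgeR 4.0.16 gave TMM factors and the negative binomial test, and DESeq2 1.42.0 size factors. Alternatives covered thresholds, test, scaling, filters, and the replacement of 0.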

Additional observations from a re-analysis of the deposited data

How the results depend on the processing

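No paired analysis was possible because a single library stands for each feeding, and no library could be left out. The 6 non-coding records past both thresholds became 10 at p under 0.05 (4 higher), 16 with a ratio over 1.5 (8 higher, 8 lower), 3 with a ratio over 4 (1 higher, 2 lower) and 1 with a coefficient of variation of 0.4 assumed (0 higher, 1 lower). The 2 higher records became 0 with 0.2 assumed, and 1 at p under 0.001, at an adjusted p under 0.01, with a mean of at least 10 tags and with tags in both libraries. The number past both thresholds was 4 to 6 under 8 other alternatives, and all of these records were among the 6. A 0 replaced by 3 tags, which also gave 6, left every p as it was and is no check on these calls. The 40 records past 2-fold became 82 with a ratio over 1.5, 7 with a ratio over 4, 8 with a mean of at least 10 tags, 22 with tags in both libraries and 20 with a 0 replaced by 3 tags, and 27 under DESeq2 size factors, which shift each ratio by 0.02. The number past 2-fold thus also depended on the scaling and on the replacement of a 0. The other changes follow from the thresholds, filters and assumed variation themselves.

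The median level was 58.4 TPM in the miR-184 library and 52.3 TPM in the water library with a mean of at least 10 tags, and 24.4 and 23.9 TPM with tags in both libraries, which turns the order of the libraries round. The share of tags was 1.96% and 2.04% without the 10 most abundant records in the total, and 1.39% and 1.38% without the most abundant non-coding record. The median log2 ratio lay between -0.02 and 0.05. Of 322 results for 26 named records, 12 fell back under the thresholds, 2 passed them and 308 did not change side. Only the 6 records past both thresholds could fall back, and all 12 results were theirs. Many of the other named records were picked for a ratio near 1 or had few tags. The 308 is therefore no measure of how stable the 6 calls are. Depth limits the low records, since 41 of the 172 had too few tags to pass in either direction.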

Other observations

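Among the non-coding records that averaged 50 tags or more, the 2 largest changes stood beside records with the next identifier that lay on the other side of a ratio of 1. XR_014967.1 had 17 tags in the miR-184 library and 151 in the water library, and XR_014968.1 had 241 and 132. XR_015002.1 had 41 and 116 tags, and XR_015003.1 had 86 and 42. Of the 119 pairs of non-coding records with consecutive numbers, 41 had a mean of at least 10 tags in both records, and in 27 of these the records lay on opposite sides of a ratio of 1 while in 14 they lay on the same side. A record can belong to 2 such pairs, the pairs were looked at after their values were seen, and consecutive numbers do not show that records are neighbours in the genome. Sides were counted whatever the size of the ratio. No like count was made for coding records, so that the pairs show no trait particular to the non-coding set.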
